A study of Caenorhabditis elegans with 55 samples.

Results

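The genes described here are dcr-1, drh-1, rde-4, rrf-3, eri-1, eri-3 and eri-5 of Caenorhabditis elegans, which encode Dicer and proteins of the Dicer and ERI complexes. They were chosen by name, from their known roles in 26G-RNA synthesis and in RNA interference, with earlier results of these data known, though the rule itself uses no measured value. All 7 had an antisense entry in each of the 10 small RNA tables, of 20096 protein-coding genes with an antisense entry in any of them. All 7 were also among the 19391 entries common to both mRNA tables, of which 14801 were tested.

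26G-RNAs are short RNAs that start with guanosine and are made on mRNA templates in the germline. The RNA-dependent RNA polymerase RRF-3 copies the template, and Dicer, held with it in the ERI complex, cuts the duplex. The 26G-RNAs bind the Argonautes ALG-3 and ALG-4 in the sperm-producing germline and ERGO-1 in oocytes and embryos. Other RNA-dependent RNA polymerases then make 22G-RNAs antisense to the target, which bind CSR-1 or the worm-specific WAGO Argonautes. CSR-1 is known for binding 22G-RNAs against genes expressed in the germline, so antisense reads of a gene in a CSR-1 immunoprecipitate (IP) describe that gene as a small RNA target, not as a producer of small RNAs.

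Small RNA came from whole L4 larvae kept at 20 C. Each strain had 2 IP and 2 input libraries, and each input came from the lysate of an IP. JMC101, csr-1(tor67[gfp::3xflag::csr-1]), carries tagged CSR-1 with no isoform named. JMC164 carries the tor67 tag, placed by its label in exon 2 of csr-1, together with csr-1(mg660[G120*]), a stop codon in the exon that only the longer isoform CSR-1a has, and its IP is of CSR-1b. JMC161 carries unc-119(ed3), csr-1(tm892) and the transgene mgTi11, in which the promoter of the ribosomal protein gene rpl-28 drives a csr-1a construct labelled exon1::gfp. JMC223, wago-4(tor117[gfp::3xflag::wago-4]), carries tagged WAGO-4. IPs labelled CSR-1a came from 3 strains, namely JMC151, whose allele tor160 puts gfp and 3xflag in exon 1 of csr-1, GR3035, mgIs75[rpn-2::gfp]; mgTi14[pbs-5::mcherry], and GR3039, csr-1(mg657[G91R]). JMC205, alg-3(tor141[gfp::3xflag::alg-3]), JMC207, alg-4(tor143[gfp::3xflag::alg-4]), and JMC248, wago-10(tor162[3xflag::wago-10]), carry tags on ALG-3, ALG-4 and WAGO-10. mRNA was sequenced from whole L4 worms of JMC164 and of N2, the wild-type Bristol strain, at 25 C and at 20 C, with 3 libraries per group.

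Some labels disagree. The mRNA titles of the mutant name csr-1a(tor159), while its genotype label names mg660[G120*]. GFP beads are named for the IPs of GR3035, GR3039 and JMC248, although no genotype label of these strains has GFP fused to an Argonaute. For JMC161 the title gives CSR-1, while the table gives CSR-1a. Here the IPs called labelled CSR-1a are those of JMC151, GR3035 and GR3039, whose titles give CSR-1a. The labels do not say whether replicate libraries came from separate cultures, so p-values measure the spread between these libraries, which may be technical.

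The small RNA libraries held an estimated 325376 to 30284493 reads, so that 1 read was worth 0.033 to 3.07 RPM, the unit of the tables, which is reads scaled to a total of 1000000 per library, and the mRNA libraries held 7457517 to 18775025 counts. The shallowest small RNA library was input 2 of JMC223. In the mRNA tables the GFP entry had 172 to 772 counts in the 6 libraries of the tagged mutant and 0 to 1 in the 6 of N2. The third mutant library at 20 C stood apart, with a correlation of 0.908 to the library of its group farthest from it, across tested genes on the log scale, and with 299 csr-1 counts against 1083 and 4178 in the other 2. No germline, oogenesis or spermatogenesis marker was at 0 in any mRNA library. In whole worms, fewer germ cells and less of an mRNA per germ cell cannot be told apart.

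Antisense small RNAs of all 7 genes were more abundant in the IPs of total CSR-1, CSR-1b, the CSR-1a transgene and WAGO-4 than in the matching inputs. The 7 genes together had 2045 and 1951 RPM in the JMC101 IPs, against 221 and 259.7 RPM in its inputs, and 1401 and 1328 RPM in the JMC223 IPs, against 91.6 and 64.5 RPM in its inputs. An antisense entry was tested with limma on log2(RPM + 1), so that fold changes of low genes are understated, and called when its Benjamini-Hochberg adjusted p was under 0.05 with a log2 difference of at least 1. Entries with at least 10 reads in at least 2 of the libraries were tested. In JMC151 and in GR3035, dcr-1, rrf-3 and eri-5 were called higher, which is 3 of the 7 against 42.5% and 33.2% of all antisense coding entries tested in these strains. In JMC151 eri-5 met the read minimum only through the IP libraries, and 2 of 6 were called there without it. With no filter on low values the JMC151 count was 0. The 10 tables were scaled separately, so levels set beside each other across strains carry no test, and levels of different genes are not compared because no transcript lengths were used.

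**Figure D1:**
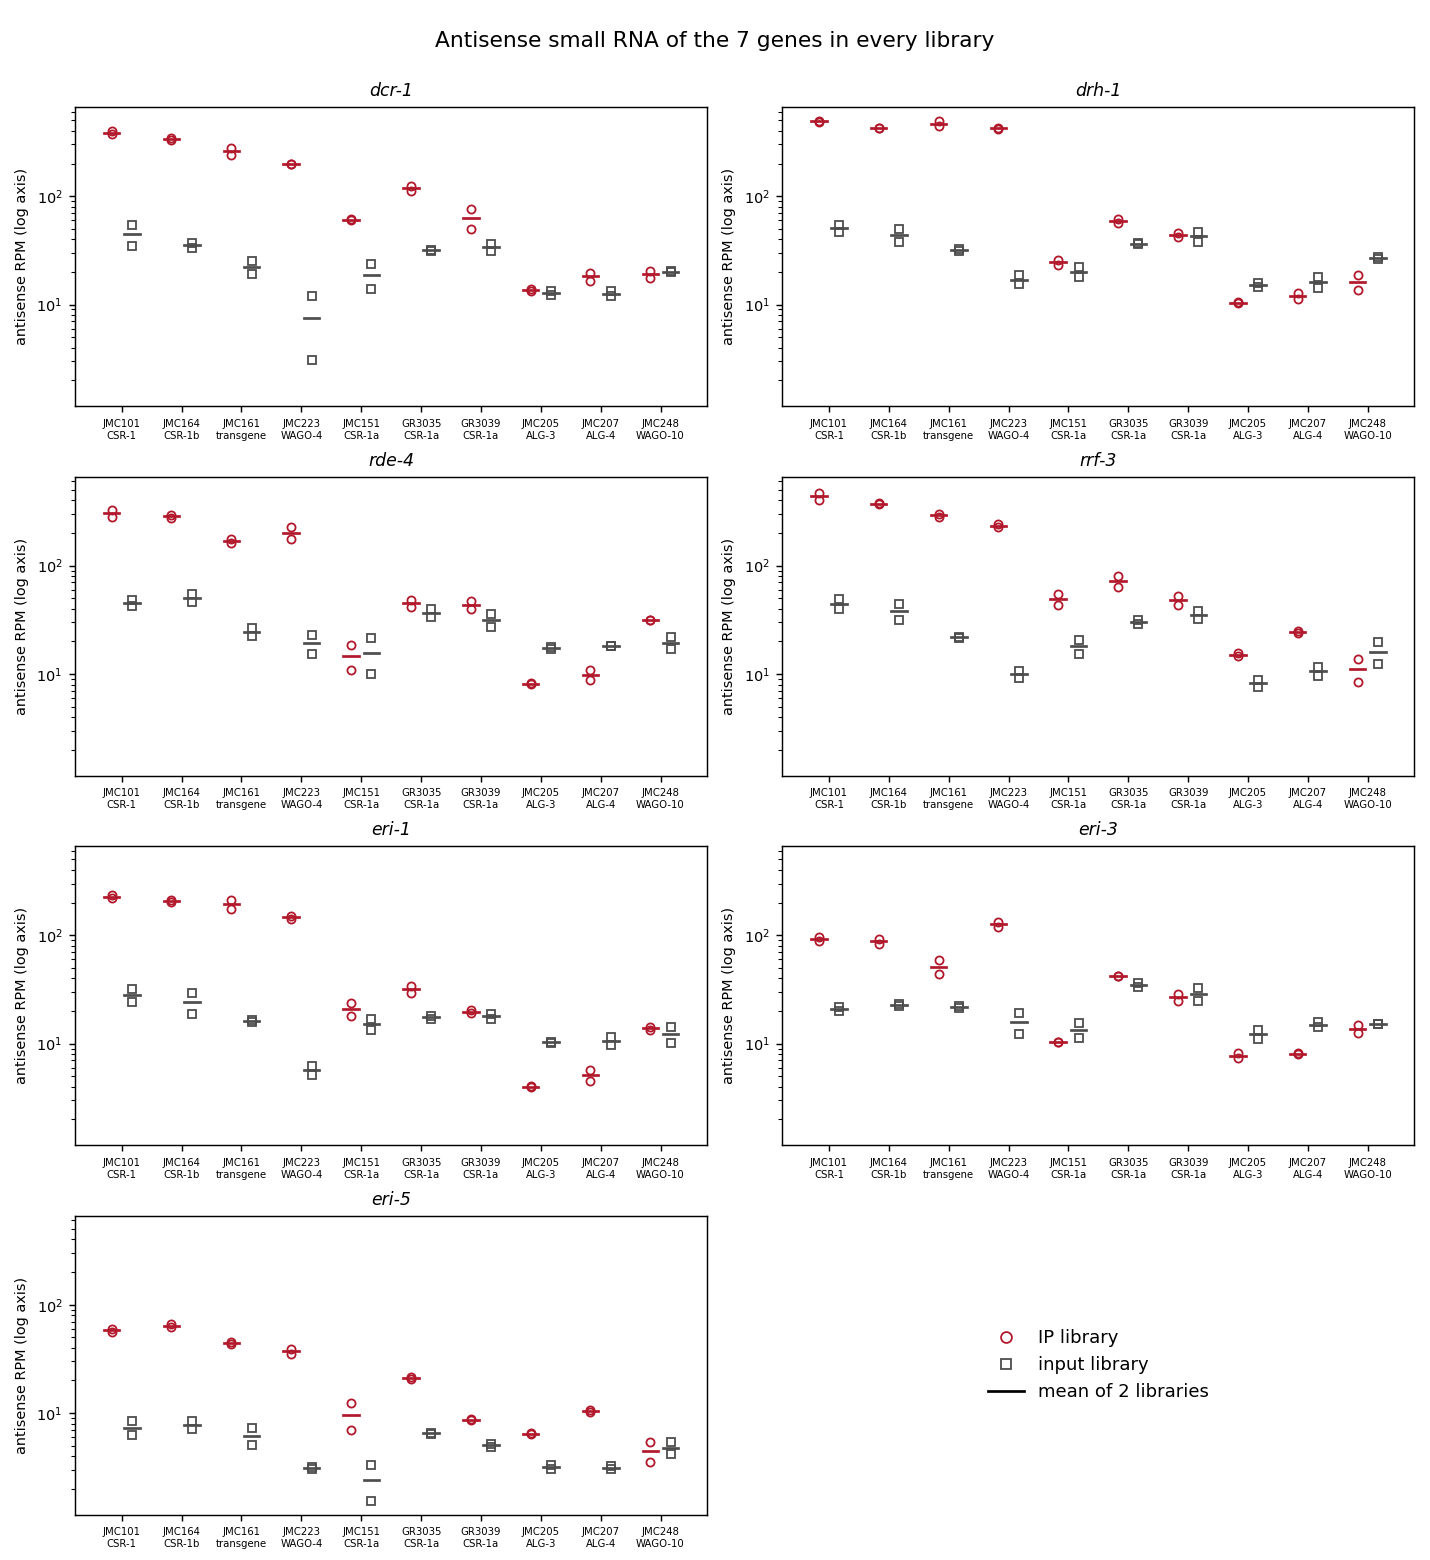
Antisense small RNA of each gene in RPM, on a log axis, for the 10 strains, with IP libraries as circles left of input libraries as squares and lines at the mean of 2 libraries. In the 4 strains at the left every IP library lies above both inputs for every gene, while for drh-1, rde-4, eri-1 and eri-3 the ALG-3 and ALG-4 IP libraries lie below their inputs.

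dcr-1 (WBGene00000939) encodes Dicer, the ribonuclease that cuts double-stranded RNA into microRNAs, primary siRNAs and 26G-RNAs. Its antisense reads were at 374 and 397 RPM in the JMC101 IPs, against 34.8 and 54.2 RPM in the inputs. They were at 328 and 343 RPM in the JMC164 IPs, against 33.1 and 37.3 RPM in the inputs. In the WAGO-4 IPs of JMC223 they were at 200.1 and 198 RPM, against 11.9 and 3.07 RPM in the inputs, where the lower value is 1 read. Every IP library lay above both inputs in these strains and in JMC161, and the log2 differences were 3.12 in JMC101, 3.22 in JMC164, 3.50 in JMC161 and 4.79 in JMC223. In JMC161 dcr-1 had 277 and 241 RPM in the IPs, against 25.3 and 19.05 RPM in the inputs. The WAGO-4 value of dcr-1 was 3.95 without the shallow input 2 and 5.62 without input 1.

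The Dicer gene had the highest log2 difference of the 7 in the WAGO-4 IPs of JMC223, where drh-1 followed at 4.56. It also had the highest in the IPs of JMC151, GR3035 and GR3039, which are labelled CSR-1a. In JMC151 eri-5 was close to dcr-1, at 1.64 (SE 0.57), as it was in GR3039, at 0.68 (SE 0.29). The order of these 2 genes is uncertain in both strains. dcr-1 had 61.2 and 60.0 RPM in the JMC151 IPs, against 23.8 and 14.03 RPM in the inputs. It had 125 and 111 RPM in the GR3035 IPs, against 32.0 and 31.2 RPM in the inputs. In GR3039 it had 76.3 and 49.5 RPM in the IPs, against 36.3 and 31.4 RPM in the inputs. The IP libraries lay above the inputs in all 3 strains, and dcr-1 was called in JMC151 (log2 difference 1.67, SE 0.58, limma adjusted p = 0.0112) and in GR3035 (1.87, SE 0.14, limma adjusted p = 6.86e-05). In GR3039 the difference was 0.85 with a limma adjusted p of 0.0169, under the fold minimum, and without IP replicate 2 it was 1.15 and called. The JMC151 call did not hold when the first IP, the second IP or the second input library was left out, with limma adjusted p-values of 0.198, 0.18 and 0.0562, nor with no filter on low values, with 0.123. In the JMC205, JMC207 and JMC248 IPs the log2 differences of dcr-1 were 0.09, 0.49 and -0.07, none of them called.

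drh-1 (WBGene00001090) encodes a Dicer-related helicase of the RIG-I type that acts with Dicer in antiviral RNA interference. It had 498 and 487 RPM in the JMC101 IPs, against 46.2 and 54.4 RPM in the inputs. In the JMC161 IPs it had 446 and 489.9 RPM, against 31.1 and 32.4 RPM in the inputs, and in the JMC223 IPs 425 and 418 RPM, against 18.7 and 15.4 RPM in the inputs, where the last value is 5 reads. The IP libraries were far above the inputs in each of these strains, with log2 differences of 3.27, 3.84 and 4.56, and of 3.28 in JMC164, where drh-1 had 427 and 430.0 RPM in the IPs against 37.5 and 50.0 RPM in the inputs. The IPs of JMC151, GR3035 and GR3039 differed from this, though JMC161, among the strains above, also carries a csr-1a construct. drh-1 had 25.9 and 23.0 RPM in the JMC151 IPs, against 22.3 and 18.0 RPM in the inputs, and 46.0 and 42.1 RPM in the GR3039 IPs, against 47.0 and 37.9 RPM in the inputs. The libraries overlapped in GR3039 and were close in JMC151, and neither log2 difference, 0.27 in JMC151 or 0.06 in GR3039, was called. In GR3035 it had 56.7 and 61.0 RPM in the IPs, against 36.8 and 36.1 RPM in the inputs, and the difference was 0.67 (SE 0.13, limma adjusted p = 0.00512), below the fold minimum. In the IPs of ALG-3 and WAGO-10, drh-1 had the lower value in every IP library, with 10.3 and 10.4 RPM against 15.6 and 14.4 RPM in the JMC205 inputs, and 18.6 and 13.7 RPM against 26.2 and 27.2 RPM in the JMC248 inputs. These log2 differences of -0.49 and -0.71 were under the fold minimum, with limma adjusted p-values of 0.00252 and 0.0484.

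rde-4 (WBGene00004326) encodes a double-stranded RNA binding protein that partners Dicer in exogenous RNA interference. It had 327 and 284 RPM in the JMC101 IPs, against 48.3 and 42.2 RPM in the inputs, and in the JMC223 IPs 227 and 175 RPM, against 23.0 and 15.4 RPM in the inputs, where the last value is 5 reads. The libraries did not overlap, and the log2 differences were 2.73 in JMC101, 2.48 in JMC164, 2.74 in JMC161 and 3.34 in JMC223. rde-4 had 295 and 273 RPM in the JMC164 IPs, against 46.2 and 54.3 RPM in the inputs, and 161 and 177 RPM in the JMC161 IPs, against 22.7 and 26.4 RPM in the inputs. In the JMC151 IPs rde-4 had 10.99 and 18.6 RPM, against 21.5 and 10.0 RPM in the inputs. Both IP libraries lay between the inputs, and the log2 difference was -0.04 (SE 0.57). The GR3035 IPs held 41.9 and 48.7 RPM of rde-4, against 39.6 and 33.6 RPM in the inputs, and the GR3039 IPs 47.2 and 40.1 RPM, against 36.1 and 27.0 RPM in the inputs. IP libraries were above the inputs in both strains, with log2 differences of 0.30 and 0.46 that were not called, and with factors from the trimmed mean of M-values (TMM) the GR3035 value was -0.012. In ALG-3 IPs rde-4 had 8.20 and 8.14 RPM, against 17.7 and 16.97 RPM in the inputs. Both IP libraries were low, and the log2 difference of -0.998 was just short of the fold minimum, with a limma adjusted p of 2.83e-05. The value was past the minimum, and called, without IP replicate 1 or input replicate 2 of JMC205, and with a pseudocount of 0.1 RPM, at -1.07. rde-4 had the highest log2 difference of the 7 genes in the WAGO-10 IPs, with 31.8 and 31.4 RPM in the JMC248 IPs against 21.8 and 16.9 RPM in the inputs. That difference of 0.69 (SE 0.23, limma adjusted p = 0.0449) was under the fold minimum too.

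rrf-3 (WBGene00004510) encodes the RNA-dependent RNA polymerase that starts 26G-RNA synthesis. It had 472 and 402 RPM in the JMC101 IPs, against 39.7 and 48.8 RPM in the inputs, and 370.2 and 379 RPM in the JMC164 IPs, against 31.7 and 44.0 RPM in the inputs. In the JMC223 IPs it had 227 and 241 RPM, against 10.7 and 9.22 RPM in the inputs, where the lower value is 3 reads. All IP libraries were far above the inputs, with log2 differences of 3.28 in JMC101, 3.29 in JMC164, 3.67 in JMC161 and 4.42 in JMC223. JMC161 IPs held 282 and 300.4 RPM of rrf-3, against 22.2 and 21.6 RPM in the inputs. rrf-3 was also called in IPs where most of the genes were not. It had 43.3 and 55.1 RPM in the JMC151 IPs, against 20.7 and 15.4 RPM in the inputs. In the GR3035 IPs it had 63.9 and 80.9 RPM, against 31.5 and 28.9 RPM in the inputs, and in the ALG-4 IPs of JMC207 24.7 and 24.1 RPM, against 11.5 and 9.69 RPM in the inputs. The IP libraries lay above the inputs in all 3 strains, with log2 differences of 1.40 (SE 0.57, limma adjusted p = 0.0333), 1.23 (SE 0.16, limma adjusted p = 0.000795) and 1.14 (SE 0.19, limma adjusted p = 0.00128). With TMM factors the GR3035 value of rrf-3 was 0.91 and the JMC151 value 0.80, and neither was called. The JMC151 call was also lost without either IP library or input replicate 2 and with no filter on low values, and the ALG-4 call with a pseudocount of 5 RPM, at 0.92. The ALG-3 IPs held rrf-3 at 15.6 and 14.6 RPM, against 7.65 and 8.89 RPM in the inputs, and this difference of 0.80 (SE 0.12) was called with TMM factors, as 1.24. In GR3039 rrf-3 had 52.6 and 43.7 RPM in the IPs, against 38.5 and 32.0 RPM in the inputs, and the difference of 0.44 was not called. The WAGO-10 IPs held 13.7 and 8.41 RPM of rrf-3, against 12.4 and 19.7 RPM in the inputs. Those libraries overlapped, at a difference of -0.50. T05C12.11 overlaps rrf-3 in the annotation, so the assignment of reads between the 2 genes is uncertain.

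eri-1 (WBGene00001332) encodes an exonuclease that trims RNA ends in the ERI pathway and on ribosomal RNA. It had 219 and 236 RPM in the JMC101 IPs, against 24.2 and 31.6 RPM in the inputs, and 151 and 141.9 RPM in the JMC223 IPs, against 5.16 and 6.15 RPM in the inputs, where the last value is 2 reads. The log2 differences were 3.00 in JMC101, 3.09 in JMC164, 3.50 in JMC161 and 4.48 in JMC223, with no overlap between IP and input. eri-1 had 211 and 203 RPM in the JMC164 IPs, against 18.7 and 29.4 RPM in the inputs, and 175 and 213 RPM in the JMC161 IPs, against 15.8 and 16.4 RPM in the inputs. The IPs of ALG-3 held eri-1 at 4.07 and 3.96 RPM, against 10.4 and 10.1 RPM in the inputs. In the ALG-4 IPs it had 5.70 and 4.48 RPM, against 9.66 and 11.4 RPM in the inputs. Every ALG-3 and ALG-4 IP library was below its inputs. The ALG-3 difference, -1.17 (SE 0.12, limma adjusted p = 2.96e-05), was the single call of a member as lower in any IP, and with TMM factors or a pseudocount of 5 RPM it was -0.76 and not called. The ALG-4 difference was -0.92 (SE 0.21, limma adjusted p = 0.00495), and it was called with a pseudocount of 0.1 RPM, at -1.04, and without input replicate 1 or IP replicate 1 of JMC207, at -1.03 and -1.07. In the 3 IPs labelled CSR-1a the log2 differences of eri-1 were 0.44 in JMC151, 0.82 in GR3035 and 0.13 in GR3039, none of them called. GR3035 came nearest, with 29.2 and 34.0 RPM in its IPs, against 18.0 and 16.9 RPM in its inputs.

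eri-3 (WBGene00021103) encodes a component of the ERI complex required for the endogenous pathway. It had 95.4 and 89.0 RPM in the JMC101 IPs, against 21.7 and 20.0 RPM in the inputs. In the JMC161 IPs it had 59.0 and 43.8 RPM, against 21.5 and 22.02 RPM in the inputs, and in the JMC223 IPs 131 and 120.2 RPM, against 19.01 and 12.3 RPM in the inputs, where the last value is 4 reads. The IP libraries lay above the inputs, by less than for the other genes. eri-3 had the lowest log2 difference of the 7 genes in 7 of the 10 IPs, with 2.09 in JMC101, 1.90 in JMC164, 1.19 in JMC161 and 2.96 in JMC223. The JMC161 value (SE 0.19, limma adjusted p = 0.000882) was not called with TMM factors, at 0.54, nor without IP replicate 1, at 0.98. In the JMC151 IPs eri-3 had 10.3 and 10.2 RPM, against 15.4 and 11.4 RPM in the inputs, and in the GR3039 IPs 28.8 and 24.7 RPM, against 32.8 and 25.0 RPM in the inputs. The JMC151 IP libraries were below the inputs, and those of GR3039 overlapped them, with differences of -0.33 and -0.10 that were not called. In GR3035 the difference of eri-3 was 0.27 (limma adjusted p = 0.134). The ALG-3 IPs had 7.37 and 8.14 RPM of eri-3, against 11.1 and 13.3 RPM in the inputs, and the ALG-4 IPs 8.05 and 8.11 RPM, against 14.2 and 15.7 RPM in the inputs. All were below their inputs, at -0.59 (limma adjusted p = 0.00265) and -0.81 (limma adjusted p = 0.00543), under the fold minimum.

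eri-5 (WBGene00021419) encodes a Tudor domain protein that tethers RRF-3 to Dicer. It had 59.7 and 56.3 RPM in the JMC101 IPs, against 6.30 and 8.39 RPM in the inputs, and in the JMC223 IPs 39.3 and 34.9 RPM, against 3.17 and 3.07 RPM in the inputs. The log2 differences were 2.83 in JMC101, 2.89 in JMC164, 2.67 in JMC161 and 3.21 in JMC223, with all IP libraries above the inputs. eri-5 had 66.2 and 62.0 RPM in the JMC164 IPs, against 7.06 and 8.52 RPM in the inputs, and 43.2 and 44.9 RPM in the JMC161 IPs, against 5.05 and 7.27 RPM in the inputs. In JMC223 the inputs held 8 and 1 reads of eri-5, so it was tested there only through the IP libraries, and that difference is a description. eri-5 was called in 5 of the 8 IPs in which an input library held at least 10 of its reads. It had 20.7 and 21.6 RPM in the GR3035 IPs, against 6.36 and 6.62 RPM in the inputs. In the ALG-4 IPs it had 10.6 and 10.2 RPM, against 3.02 and 3.22 RPM in the inputs, without overlap in either strain. The log2 differences were 1.56 in GR3035 (SE 0.16, limma adjusted p = 0.000219) and 1.47 in ALG-4 (SE 0.18, limma adjusted p = 0.000271), and the ALG-4 call was lost with a pseudocount of 5 RPM, at 0.93. In the JMC151 IPs eri-5 had 12.3 and 7.04 RPM, against 1.54 and 3.34 RPM in the inputs, which were 19 and 11 reads against 2 and 5. Here too it was tested only through the IP libraries, so its log2 difference of 1.64 is a description. In the ALG-3 IPs it had 6.56 and 6.38 RPM, against 3.03 and 3.32 RPM in the inputs, a difference of 0.84 that was called with TMM factors, as 1.23, or with a pseudocount of 0.1 RPM, as 1.01. In GR3039 eri-5 had 8.60 and 8.73 RPM in the IPs, against 5.17 and 4.89 RPM in the inputs, without overlap, and the difference of 0.68 (SE 0.29, limma adjusted p = 0.1002) was not called. Y38F2AR.10 and 2 non-coding RNAs overlap eri-5 in the annotation, so its read assignment is uncertain.

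Counted by IP, all 7 genes were called higher in JMC101, where 54.5% of tested antisense coding entries were called higher and 19.5% lower. All 7 were also called higher in JMC164, against a background of 50.7% higher and 19.4% lower. The same held in JMC161, against 56% higher and 13.3% lower, and in JMC223, against 68.2% higher and 5.25% lower. In JMC223 0 of the 7 had 10 reads in both inputs, so that all met the read minimum through the IP libraries, and the count there is a description. The median log2 difference of the 7 was 3.00 in JMC101, 3.09 in JMC164, 3.50 in JMC161 and 4.42 in JMC223, beside medians of 1.42, 1.09, 1.42 and 3.19 over all antisense coding entries tested in those strains. In JMC151, 3 of the 7 were called higher and 0 lower, against a background of 42.5% higher and 15.4% lower, with a median of 0.44 beside 1.03 over all antisense coding entries. Leaving aside eri-5, tested there only through the IP libraries, 2 of 6 were called. The JMC151 count with eri-5 was 2 without input replicate 1, 1 without input replicate 2 and 0 without either IP library, where eri-5 was no longer tested. Without the filter on low values it was 0, and with TMM factors 1. In GR3035, 3 of the 7 were called higher and 0 lower, against 33.2% higher and 11.6% lower. In GR3039 0 of the 7 were called in either direction, against 16.7% higher and 6.82% lower. The 0 in GR3039 came from limma with the fold minimum, and 1 gene, dcr-1, had an adjusted p under 0.05 there, against 32.8% of antisense coding entries in either direction.

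In the sperm Argonaute IPs the counts were near or below the background. In JMC205, 0 of the 7 were called higher against 28.9%, and 1 was called lower against 31%, while 6 had a limma adjusted p under 0.05 whatever the fold, against 85.5% of antisense coding entries. In JMC207, 2 of the 7 were called higher against 33.1% and 0 lower against 33.6%, with 5 under that adjusted p, against 83.3%. In JMC248, 0 of the 7 were called higher against 10.4% and 0 lower against 8.98%, with 2 under it, against 27.5%. In JMC207 the log2 differences of rde-4 and drh-1 were -0.83 (limma adjusted p = 0.00667) and -0.40 (limma adjusted p = 0.121). In JMC248 those of eri-1, eri-3 and eri-5 were 0.18, -0.15 and -0.094, with limma adjusted p-values of 0.624, 0.67 and 0.842. In the ALG-3 and ALG-4 IPs rrf-3 and eri-5 had positive differences while rde-4, eri-1 and eri-3 had negative ones, under library-total scaling and under TMM factors. The TMM factors moved the median of all entries in an IP by between -1.26, in JMC223, and 0.31, in JMC205, on the log2 scale. All 7 genes were still called in JMC101, JMC164 and JMC223 with them.

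**Figure D2:**
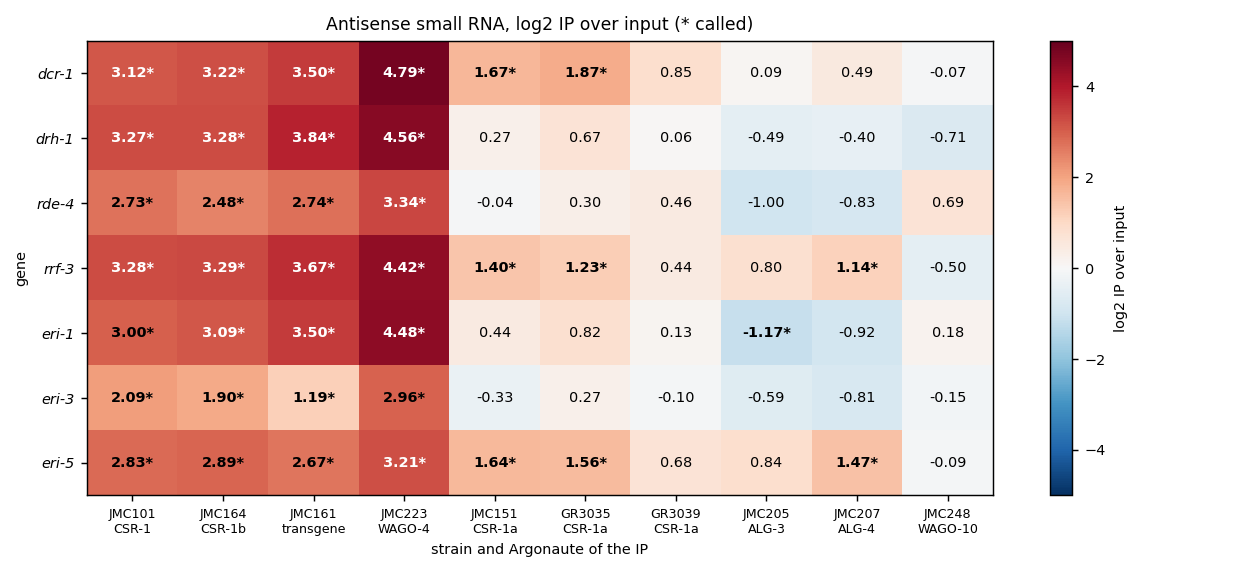
Log2 difference in antisense small RNA between IP and input for each gene (rows) and strain (columns), with called values in bold and starred. The 4 columns at the left hold called values from 1.19 to 4.79 in every row, and rrf-3 and eri-5 have called values in 3 further columns each. The eri-5 values in JMC223 and JMC151 rest on input libraries with 8 and 1 and with 2 and 5 reads.

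Whether the CSR-1a and CSR-1b IPs differed for these genes was tested by setting the JMC151 difference against the JMC164 difference in a single limma fit over 8 libraries. Enrichment was lower in JMC151 for 6 of the 7 genes, where 23.8% of antisense coding entries were called lower and 10.8% higher. drh-1 differed by -3.01 (SE 0.49, limma adjusted p = 0.00197), eri-1 by -2.65 (SE 0.52, limma adjusted p = 0.00501) and rde-4 by -2.52 (SE 0.59, limma adjusted p = 0.011). eri-3 differed by -2.23, rrf-3 by -1.89 and dcr-1 by -1.55, with limma adjusted p-values of 0.008, 0.0199 and 0.0484. eri-5 differed by -1.25 with a 95% interval from -2.54 to 0.03 and was not called. The median of the 7 was -2.23, beside -0.27 over all antisense coding entries. The dcr-1 call was lost with a pseudocount of 0.1 RPM and with no filter on low values. Without 1 library the count was 4 to 6, where dcr-1 was lost without either JMC151 IP or any JMC164 library, and rrf-3 without JMC151 IP replicate 1, JMC164 input replicate 1 or either JMC164 IP. The tagged alleles, the isoform and the depth of the libraries differ together between the 2 strains, and their parts cannot be told apart.

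Between WAGO-4 and CSR-1b, which share the JMC164 libraries with the comparison above, 3 of the 7 genes had a called difference, all higher in JMC223, against 24.9% of antisense coding entries called higher and 4.7% lower. eri-1 differed by 1.39 (SE 0.37, limma adjusted p = 0.0292), drh-1 by 1.28 (SE 0.30, limma adjusted p = 0.0171) and rrf-3 by 1.13 (SE 0.31, limma adjusted p = 0.035). The shallow input 2 of JMC223 held 2 reads of eri-1, 5 of drh-1 and 3 of rrf-3, so these differences rest in part on few reads. dcr-1 differed by 1.57 and eri-3 by 1.06, with limma adjusted p-values of 0.11 and 0.0697. rde-4 differed by 0.86 and eri-5 by 0.31, with limma adjusted p-values of 0.122 and 0.609. The median of the 7 was 1.13, beside 0.91 over all antisense coding entries, so most of this shift was shared by other entries. With the lysate as a block, rrf-3 had a limma adjusted p of 0.0523 and was not called. The count ranged from 0 to 6 when 1 library was left out. It was 0 without JMC223 IP replicate 1 or 2, JMC164 input replicate 2 or JMC164 IP replicate 2, 1 without JMC164 IP replicate 1, and 6 without JMC223 input replicate 1, where 42.5% of antisense coding entries were called higher. Leaving out JMC223 input replicate 1 left the shallow replicate 2, with 325376 reads, as the single input of that strain. With TMM factors the median of all entries in this comparison moved by 0.42.

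The G91R substitution was addressed by setting the GR3039 difference against that of GR3035, both labelled CSR-1a. None of the 7 genes was called with limma, against 1.6% of antisense coding entries lower and 0.144% higher. The difference was -1.02 for dcr-1 (SE 0.30, limma adjusted p = 0.0762), -0.88 for eri-5 and -0.79 for rrf-3, which are the 3 genes called in the GR3035 IPs. The GR3035 libraries enter both those calls and these differences, so the 2 are not independent. The other differences were -0.69 for eri-1, -0.62 for drh-1, -0.37 for eri-3 and 0.16 for rde-4. The median of the 7 was -0.69, beside -0.43 over all antisense coding entries. At an unadjusted p under 0.05, 5 of the 7 were lower in GR3039, against 27.9% of antisense coding entries. With the lysate as a block dcr-1 was called at the same value, with a limma adjusted p of 0.0367, and it was also called without GR3039 IP replicate 1, at -1.33. GR3035 carries 2 reporter transgenes that the label of GR3039 does not list.

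The log2 differences of the 7 genes across the 10 strains were compared with each other and with those of other entries. Likeness was measured as the root mean square distance in log2 difference over the 10 strains, for entries that passed the read minimum in every strain, and is a description with no test. Over these 5246 entries the median distance from a member was between 1.28, for rrf-3, and 1.57, for eri-1. Among the 7, eri-1 and drh-1 were closest, at 0.43, followed by dcr-1 and rrf-3, at 0.44. eri-3 was farthest from rrf-3, at 1.47, and from dcr-1, at 1.45. The entries nearest to dcr-1 were ufd-2, lex-1 and spd-5, at 0.235, 0.239 and 0.242. Those nearest to rrf-3 were acbp-5, gei-14 and Y43H11AL.1, at 0.157, 0.161 and 0.221. Those nearest to eri-1 were pif-1, cyk-1 and cpsf-1, those nearest to drh-1 were zyg-9, ddx-19 and syp-4, and those nearest to rde-4 were pfd-3, cpg-1 and prmt-1. eri-3 lay nearest to frg-1, Y71F9AL.10 and nrde-1, and eri-5 nearest to F36D4.5, tcc-1 and ril-2. The points share their libraries and their depth. The distances of eri-5 rest in part on inputs with 2 and 5 reads in JMC151 and 8 and 1 in JMC223. Those of dcr-1 rest in part on a JMC223 input with 1 read, and that input held no more than 5 reads of any of the 7 genes.

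Sense reads of the 7 genes were few. Their medians over the 20 IP libraries were between 0.54 and 2.99 RPM. The sense values of dcr-1 in the sperm Argonaute IPs are given because they were seen to be high. It had 16.6 and 12.7 RPM in the ALG-4 IPs, against 2.15 and 1.65 RPM in the inputs. It had 13.9 and 13.7 RPM in the ALG-3 IPs, against 1.38 and 2.01 RPM in the inputs. In both strains the IP libraries were above the inputs, with log2 differences of 2.43 (SE 0.22, limma adjusted p = 5.55e-05) in ALG-4 and 2.47 (SE 0.15, limma adjusted p = 8.89e-07) in ALG-3. These were the 2 called among the 27 sense entries of the 7 genes that met the read minimum in an IP and input comparison. The share of all sense coding entries called in these IPs is not given here. Whether the dcr-1 values are unusual there therefore cannot be said.

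The mRNA of the 7 genes was higher at 25 C than at 20 C in N2, and for 5 of them in the mutant as well. Whether the worms were at the same stage within L4 at both temperatures was not tested. In the mutant, eri-3 and eri-5 did not pass the test for temperature, and eri-3 was the single member that differed by genotype, being lower in JMC164 than in N2 at 25 C. JMC164 carries the tag on csr-1 as well as the stop codon, and N2 has neither, so their parts cannot be told apart. Levels are given in CPM, counts scaled to a total of 1000000, with TMM factors, tests are edgeR's quasi-likelihood test over all 12 libraries, and a gene was called at a Benjamini-Hochberg adjusted p under 0.05.

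**Figure D3:**
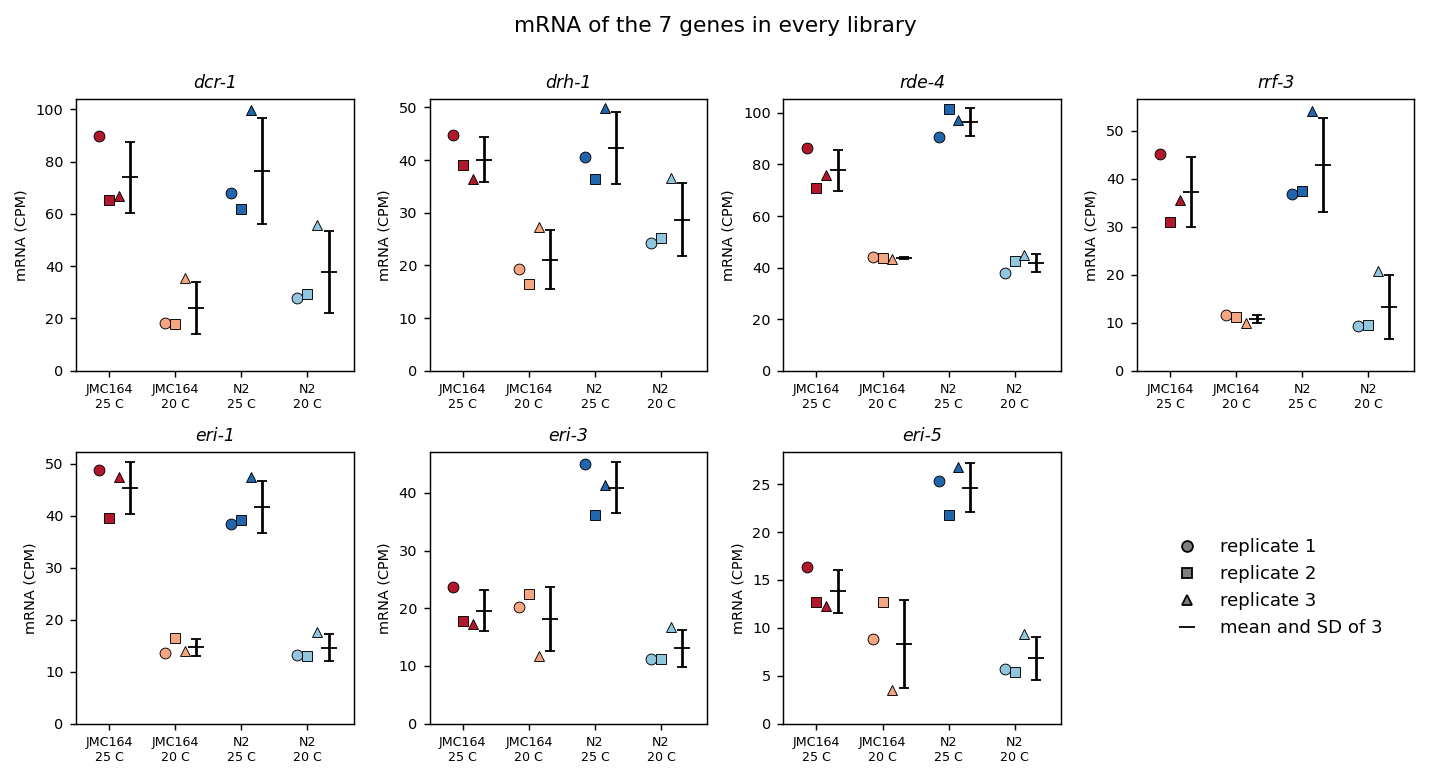
mRNA level of each gene in CPM in all 12 libraries, for JMC164 and N2 at 25 C and 20 C, with symbols for the replicates and bars for the mean and SD of 3 libraries. The 25 C libraries lie above the 20 C libraries of the same strain for rrf-3, eri-1 and rde-4, while those of eri-3 in JMC164 overlap.

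eri-3 mRNA was at 23.7, 17.7 and 17.3 CPM in JMC164 at 25 C, against 20.2, 22.4 and 11.8 CPM in JMC164 at 20 C. In N2 it was at 45.0, 36.2 and 41.4 CPM at 25 C, against 11.2, 11.2 and 16.7 CPM at 20 C. The N2 libraries at 25 C were above all others, while the mutant libraries of both temperatures overlapped. The mean was 19.6 ± 3.60 CPM in JMC164 and 40.9 ± 4.41 CPM in N2 at 25 C (SD, n = 3 each). At 25 C eri-3 fell in JMC164 relative to N2 by a log2 difference of -1.06 (SE 0.24, 95% interval -1.59 to -0.53, edgeR adjusted p = 0.00873), and the call held without any 1 library, between -1.22 and -0.98. At 20 C the difference was 0.48 (SE 0.25, edgeR adjusted p = 0.282). The temperature difference was 0.10 in JMC164 (SE 0.25, edgeR adjusted p = 0.746) and 1.64 in N2 (SE 0.25, edgeR adjusted p = 0.000163). The difference between these 2 temperature effects was -1.54 (SE 0.35, 95% interval -2.30 to -0.78, edgeR adjusted p = 0.0109), and it was between -1.84 and -1.36 without any 1 library.

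taf-6.1, the gene next to eri-3 in the annotation, encodes a subunit of the general transcription factor TFIID and was looked at after the eri-3 values were seen. It was at 16.9, 14.02 and 14.4 CPM in JMC164 at 25 C, against 26.9, 17.8 and 28.8 CPM in N2 at 25 C. The libraries did not overlap, but the log2 difference of -0.70 missed the threshold (SE 0.29, edgeR adjusted p = 0.0844), as did the interaction of -1.18 (edgeR adjusted p = 0.0562). The 2 genes do not overlap in the annotation.

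eri-5 mRNA was at 16.4, 12.7 and 12.3 CPM in JMC164 at 25 C, against 8.81, 12.7 and 3.55 CPM in JMC164 at 20 C. In N2 it was at 25.3, 21.8 and 26.8 CPM at 25 C, against 5.69, 5.37 and 9.41 CPM at 20 C. The N2 libraries at 25 C were again above all others. eri-5 rose in N2 by 1.84 (SE 0.36, edgeR adjusted p = 0.00099), and its difference in JMC164 was 0.69 (SE 0.36, edgeR adjusted p = 0.124). The mutant libraries at 25 C lay below those of N2 at 25 C without overlap, with a log2 difference of -0.83 (95% interval -1.59 to -0.08, edgeR adjusted p = 0.0878), and the interaction was -1.15 (95% interval -2.25 to -0.06, edgeR adjusted p = 0.108). Neither passed the threshold over all genes, nor did the genotype difference at 20 C, at 0.32 (edgeR adjusted p = 0.636). The interaction of eri-5 was called without the third mutant library at 20 C, at -1.58, and without the third library at 20 C of both strains, at -1.88, and the temperature difference in JMC164 was called, at 1.15, without the second mutant library at 20 C.

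The spread of eri-3 and eri-5 between the 20 C libraries ran beside the germline markers glp-1, gld-1, pgl-1, glh-1, him-3 and syp-1. The sum of these 6 was 968, 628 and 655 CPM in JMC164 at 25 C, against 1609, 1211 and 1758 CPM in N2 at 25 C. At 20 C it was 940, 1315 and 170 CPM in JMC164, against 241, 268 and 711 CPM in N2. The third mutant library and the first 2 N2 libraries at 20 C had the lowest sums, and they also had the lowest eri-3 and eri-5 values of the 12 libraries. This was not particular to eri-3 and eri-5. rrf-3, at 9.93, 9.34 and 9.52 CPM, and taf-6.1, at 9.08, 11.2 and 8.01 CPM, were also lowest in these libraries. The sum of 8 oogenesis markers was 1954, 1106 and 1070 CPM in JMC164 at 25 C, against 3157, 1992 and 3492 CPM in N2 at 25 C. At 20 C it was 370, 445 and 61.4 CPM in JMC164, against 122, 129 and 342 CPM in N2. The sum of 11 spermatogenesis markers was 177 to 220 CPM in JMC164 and 284 to 338 CPM in N2 at 25 C, and at 20 C it was 484, 581 and 156 CPM in JMC164, against 277 to 314 CPM in N2. The part of germline content in the differences of eri-3 and eri-5 was not tested.

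**Figure D4:**
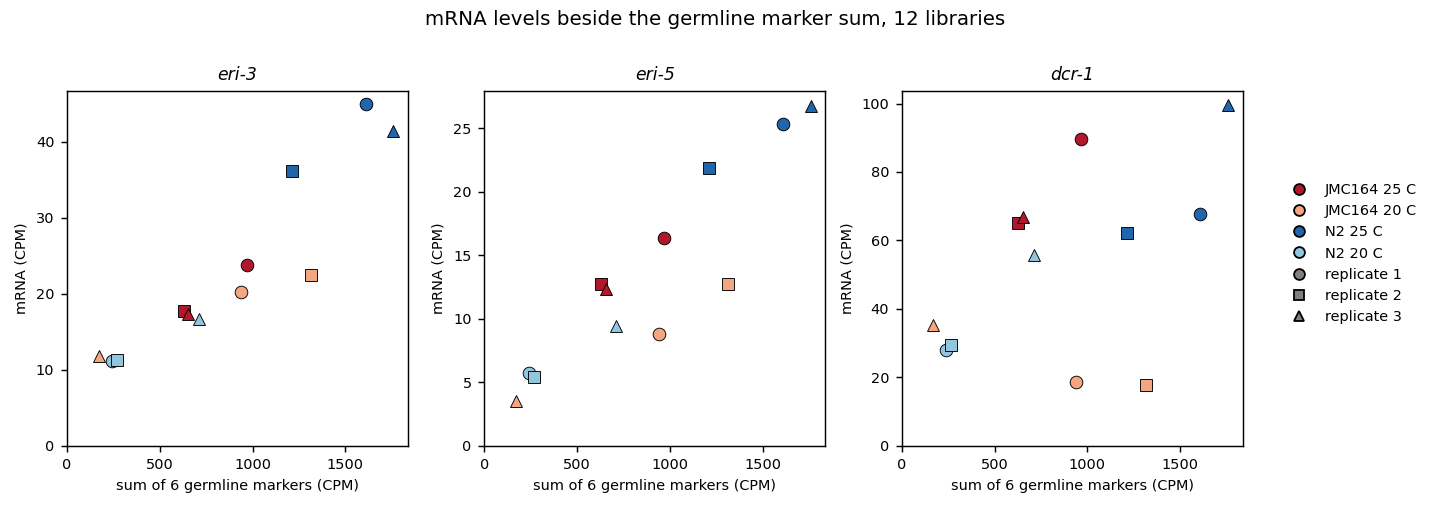
mRNA of eri-3, eri-5 and dcr-1 in CPM against the sum of 6 germline markers in CPM, with each of the 12 libraries as a point coloured by group and shaped by replicate. For eri-3 and eri-5 the libraries with the lowest marker sums have the lowest values, while for dcr-1 the first 2 mutant libraries at 20 C, with sums of 940 and 1315 CPM, have the lowest of the 12.

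dcr-1 mRNA was at 89.7, 65.2 and 66.9 CPM in JMC164 at 25 C, against 18.4, 17.8 and 35.3 CPM in JMC164 at 20 C. In N2 it was at 67.8, 62.0 and 99.6 CPM at 25 C, against 27.8, 29.5 and 55.8 CPM at 20 C. The 25 C libraries were above the 20 C libraries in both strains, and the third library at 20 C was the highest of its group in each. dcr-1 rose by 1.64 in JMC164 (SE 0.33, edgeR adjusted p = 0.0014) and by 1.02 in N2 (SE 0.32, edgeR adjusted p = 0.0175). The N2 call was lost without N2 replicate 1 or 2 at 20 C or N2 replicate 3 at 25 C, where the value was between 0.78 and 0.87. At 20 C the genotype difference was -0.67 (edgeR adjusted p = 0.254), and it was called, at -1.01, without the third mutant library. At 25 C it was -0.048 (edgeR adjusted p = 0.919), and the interaction was 0.62 (edgeR adjusted p = 0.315).

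drh-1 mRNA was at 44.8, 39.1 and 36.3 CPM in JMC164 at 25 C, against 19.4, 16.5 and 27.4 CPM in JMC164 at 20 C. In N2 it was at 40.6, 36.4 and 49.8 CPM at 25 C, against 24.2, 25.2 and 36.6 CPM at 20 C. The mutant libraries did not overlap between temperatures, while in N2 the third library at 20 C lay just above the second at 25 C. drh-1 rose by 0.93 in JMC164 (SE 0.22, edgeR adjusted p = 0.00401) and by 0.56 in N2 (SE 0.22, edgeR adjusted p = 0.0439). The N2 call did not hold with upper-quartile scaling, at 0.32, nor without N2 replicate 1 or 2 at 20 C or N2 replicate 1 or 3 at 25 C. At 20 C the genotype difference of drh-1 was -0.45, and without the third mutant library it was -0.64 and called. At 25 C it was -0.078 (edgeR adjusted p = 0.802), and the interaction was 0.37 (edgeR adjusted p = 0.373).

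rde-4 mRNA was at 86.3, 70.8 and 76.1 CPM in JMC164 at 25 C, against 43.9, 43.7 and 43.3 CPM in JMC164 at 20 C. In N2 it was at 90.5, 101.7 and 97.2 CPM at 25 C, against 37.8, 42.5 and 44.9 CPM at 20 C. All 25 C libraries were above all 20 C libraries, and those of N2 above those of the mutant at 25 C. rde-4 rose by 0.83 in JMC164 (SE 0.13, edgeR adjusted p = 0.000187) and by 1.21 in N2 (SE 0.13, edgeR adjusted p = 1.04e-05). The genotype difference at 25 C was -0.31 (SE 0.13, edgeR adjusted p = 0.0802), and the interaction was -0.37 (SE 0.18, edgeR adjusted p = 0.137). With DESeq2 both were called, at -0.38 and -0.48. At 20 C the genotype difference of rde-4 was 0.062 (edgeR adjusted p = 0.809).

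rrf-3 mRNA was at 45.2, 31.0 and 35.5 CPM in JMC164 at 25 C, against 11.5, 11.1 and 9.93 CPM in JMC164 at 20 C. In N2 it was at 36.9, 37.4 and 54.2 CPM at 25 C, against 9.34, 9.52 and 20.9 CPM at 20 C. The temperatures did not overlap in either strain. rrf-3 rose by 1.78 in JMC164 (SE 0.30, edgeR adjusted p = 0.000392) and by 1.69 in N2 (SE 0.30, edgeR adjusted p = 0.000453), and the interaction was 0.09 with a 95% interval from -0.81 to 0.99. Its genotype difference was -0.20 at 25 C and -0.29 at 20 C, with edgeR adjusted p-values of 0.605 and 0.6. eri-1 mRNA was at 48.8, 39.6 and 47.5 CPM in JMC164 at 25 C, against 13.6, 16.6 and 13.9 CPM in JMC164 at 20 C. In N2 it was at 38.3, 39.2 and 47.5 CPM at 25 C, against 13.2, 13.0 and 17.6 CPM at 20 C. Here too the temperatures were apart in both strains, and the strains overlapped at each temperature. eri-1 rose by 1.62 in JMC164 (SE 0.17, edgeR adjusted p = 1.11e-05) and by 1.51 in N2 (SE 0.17, edgeR adjusted p = 1.75e-05), and the interaction was 0.11 with a 95% interval from -0.41 to 0.63. The genotype difference of eri-1 was 0.12 at 25 C and 0.0098 at 20 C, with edgeR adjusted p-values of 0.597 and 0.983.

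**Figure D5:**
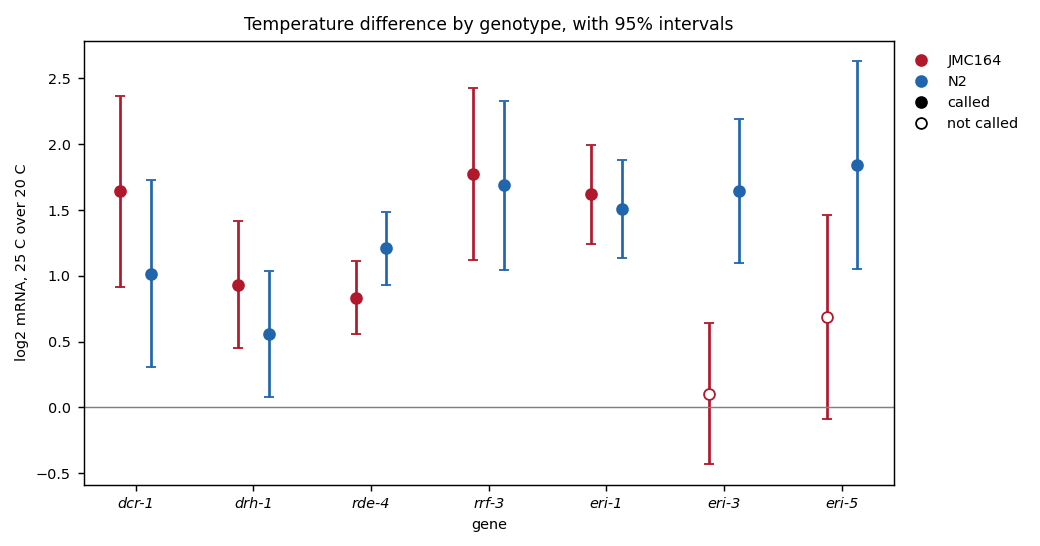
Log2 difference in mRNA between 25 C and 20 C for each gene, for JMC164 in red left of N2 in blue, with 95% intervals and filled symbols where edgeR called the gene. eri-3 has values of 0.10 in JMC164 and 1.64 in N2 with intervals that do not overlap, and for the other genes the intervals of the strains overlap.

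Counted by comparison, 5 of the 7 rose at 25 C in JMC164, where 26.8% of all tested genes rose and 24.4% fell, and 7 of the 7 rose in N2, where 28.3% rose and 30.4% fell. The median log2 difference of the 7 in N2 was 1.51, beside -0.03 over all genes. In the same comparison 8 of 8 oogenesis markers and 5 of 6 germline markers rose, and in JMC164 7 of 8 and 1 of 6. Of 5 hypodermis and cuticle markers, 3 fell and 2 rose in N2, with a median log2 difference of -4.04. In JMC164 3 of these 5 fell and 1 rose, with a median of -3.996. The part of developmental stage in the temperature differences of the 7 genes was not tested. For the 7 genes the N2 count was 5 to 7 without 1 library, and the JMC164 count 5 to 6. Between strains at 25 C, 1 of the 7 was called, lower in JMC164, where 17.4% of genes were called higher and 11.2% lower. At 20 C edgeR and DESeq2 each called 0 of the 7, where edgeR called 1.97% of genes higher and 5.17% lower, and 0 of the 7 had an unadjusted edgeR p under 0.05, against 22.5% of genes. The interaction was called for 1 of the 7, negative, where 13.5% of genes were positive and 9.26% negative. At 20 C 4 of the 7 were called without the third mutant library, with dcr-1 and drh-1 lower in JMC164 and eri-3 and eri-5 higher, where 20.2% of genes were called higher and 18.7% lower. The N2 libraries at 25 C enter both the genotype and the temperature comparison, so the values of a gene in these are not independent.

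Genes that act beside these 7 in the 26G-RNA pathway were taken from a list of 9, which holds gtsf-1, pir-1, eri-9, eri-6, eri-7, ergo-1, alg-3, alg-4 and henn-1. In JMC101 and in JMC164, 7 of the 9 were called higher in antisense reads and 1 lower, and in JMC223 5 were higher and 2 lower. Over all antisense coding entries 54.5%, 50.7% and 68.2% were called higher in these strains, and 19.5%, 19.4% and 5.25% lower. The one lower in JMC101 and JMC164 was eri-6, the helicase gene whose transcript is spliced to eri-7, at -3.33 and -3.18. In the ALG-3 IPs 5 were higher and 1 lower, against 28.9% and 31% of antisense coding entries. The higher ones were led by alg-4 at 4.58 and alg-3 at 2.66, the sperm Argonaute genes themselves. In the ALG-4 IPs 4 were higher and 2 lower, against 33.1% and 33.6%, and alg-3 had 4.60 and alg-4 3.97. In mRNA, 4 of the 9 rose at 25 C in JMC164, led by eri-7 at 3.09, and 6 rose in N2, led by eri-9 at 2.34 and eri-7 at 2.31. Of all tested genes 26.8% rose in JMC164 and 28.3% in N2. Between strains at 25 C, eri-9, a factor of the ERI pathway, was lower in JMC164 by a log2 difference of -0.76 (edgeR adjusted p = 0.0427) and was the single call of the 9. Over all genes 17.4% were called higher there and 11.2% lower.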

How the data were processed

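The members and gene lists were chosen with earlier results of these data known. The deposited small RNA tables hold RPM, reads scaled by the authors to 1000000 per library, with 0.01 added to each value, as read from the values. The deposited mRNA tables hold whole-number counts per gene, not normalized by the authors. The submitters' processing notes name cutadapt, STAR, FastQC and DESeq2, without versions; no genome build or annotation is given in the sources used here. Per the labels' protocols, small RNA was cloned from IPs and from their lysates, and mRNA libraries were selected with oligo-dT.

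The plan for small RNA was a count test if the tables held counts. Because they hold RPM, limma 3.58.1 with a mean-variance trend was run on log2(RPM + 1), after removal of the 0.01 offset and with scaling to library totals, over all sense and antisense entries of a strain's 4 libraries. An entry was tested when at least 2 libraries had at least 10 reads, estimated from the RPM of 1 read; 67.1% to 89.9% of values of at most 20 reads were whole within 0.02 reads. Entries with no feature, 2.6% to 10.8% of a library, were left out of the tests. Calls needed a Benjamini-Hochberg adjusted p under 0.05 and an absolute log2 difference of at least 1. Strains were compared by interaction terms over 8 libraries.

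mRNA counts were tested in R 4.3.3 with edgeR 4.0.16 (quasi-likelihood, TMM factors, its standard filter, 4 groups of 3 libraries). Same-numbered IP and input libraries share a lysate per the labels, and their deviations correlated at -0.02 to 0.41. Alternatives were pseudocounts of 0.1 and 5 RPM, no filter, TMM or upper-quartile factors, DESeq2 1.42.0, a replicate block, and each library left out. Leaving out replicate 3 at 20 C of both strains was chosen after seeing the data. The models were tested on simulated data. All members were named in every comparison, and of other lists up to 3 called genes of largest change. The 3 inputs of GR3043 were not analysed here, and drh-2 of the list of 22G-RNA and exogenous RNAi genes had no matching ID. Read depth bounds each value by counting error only, since PCR reads without molecular identifiers are not independent molecules.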

Additional observations from a re-analysis of the deposited data

Results flagged for a closer look

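Enrichment in the IP differed between strains for several of the genes, by the limma interaction test described above. Relative to the CSR-1b IP of JMC164, the log2 difference in the CSR-1a IP of JMC151 was lower by -1.55 for dcr-1, -1.89 for rrf-3, -2.65 for eri-1, -2.23 for eri-3, -2.52 for rde-4 and -3.01 for drh-1. In the WAGO-4 IP of JMC223 it was higher than in JMC164 by 1.13 for rrf-3, 1.39 for eri-1 and 1.28 for drh-1. These 3 values rest in part on JMC223 input replicate 2, which held 3, 2 and 5 reads of these genes. Over all antisense coding entries the median difference from JMC164 was -0.27 in JMC151 and 0.91 in JMC223. In mRNA, the temperature difference of eri-3 was lower in JMC164 than in N2 by -1.54, by edgeR's interaction test. No group held 4 or more libraries, so single outlying libraries were not tested.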

How the results depend on the processing

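With 2 or 3 libraries per group, the replication limits every value, and JMC223 input replicate 2 held 325376 reads. Counts of called genes moved by over 1.5 times in these cases. For JMC151 the count was 0 with no filter and 1 with TMM factors. For JMC205 the count higher was 1 with a pseudocount of 0.1 RPM and 2 with TMM factors, and for JMC207 it was 0 with 5 RPM. GR3039 against GR3035 gave 1 with the replicate block, and JMC223 against JMC164 gave 1 with 5 RPM and 1 with no filter. DESeq2 gave 2 at 25 C and 2 for the mRNA interaction. Without replicate 3 at 20 C of both strains the count was 3 at 20 C, 3 at 25 C and 3 for the interaction. Leaving out 1 library gave 0 to 2 in JMC151, 0 to 1 in GR3039, 0 to 1 for GR3039 against GR3035, 0 to 6 for JMC223 against JMC164, 0 to 4 at 20 C and 1 to 4 for the mRNA interaction. For the other changes of sign or call the cause was not tested.

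Values that changed sign were uncalled in both fits. With TMM factors these were eri-1 at -0.15 and drh-1 at -0.33 in JMC151, drh-1 at 0.0086 in JMC207, dcr-1 at 0.20, eri-3 at 0.12 and eri-5 at 0.14 in JMC248, eri-3 at -0.041 and rde-4 at -0.012 in GR3035, and drh-1 at -0.012 in GR3039. With 5 RPM, eri-5 was at -0.063 for JMC223 against JMC164. With upper-quartile factors, eri-1 was at -0.021 at 20 C and eri-3 at -0.069 for temperature in JMC164. DESeq2 gave an interaction of -0.025 for rrf-3 and -0.0052 for eri-1. Without replicate 3 at 20 C of both strains, rrf-3 was at 0.29 at 20 C, eri-3 at -0.20 for temperature in JMC164, and the interaction at -0.51 for rrf-3 and -0.15 for eri-1.

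Without 1 library, these ranges crossed 0. In JMC151 rde-4 was between -0.56 and 0.47. In JMC248 dcr-1 was between -0.17 and 0.028, eri-1 between -0.053 and 0.41, and eri-5 between -0.35 and 0.16. In GR3039 eri-3 was between -0.29 and 0.093 and drh-1 between -0.093 and 0.21, and against GR3035 rde-4 was between -0.040 and 0.37. In mRNA at 20 C rrf-3 was between -0.44 and 0.22, eri-1 between -0.092 and 0.18, and eri-5 between -0.14 and 0.72. At 25 C dcr-1 was between -0.21 and 0.18 and drh-1 between -0.18 and 0.052. For temperature in JMC164 eri-3 was between -0.20 and 0.29, and the interaction was between -0.44 and 0.29 for rrf-3 and between -0.082 and 0.21 for eri-1.

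The mRNA replicate numbers do not pair the libraries, with correlations of same-numbered deviations from -0.41 to 0.32. With the replicate block no mRNA count of called genes changed, and dcr-1 at 25 C was at 0.018. The lysate block of the small RNA fits changed no call other than the 2 given in the report. Of the single values with 1 library left out, 29 changed sign, 39 lost a call and 17 gained one, and 611 did neither.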

Other observations

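The polymerases and mutator genes that make 22G-RNAs and act in exogenous RNA interference were taken as a list of 16, of which 15 matched an ID. In antisense reads, 13 of the 15 were called higher in JMC101, 13 in JMC164, 13 in JMC161 and 14 in JMC223, beside the backgrounds of 54.5%, 50.7%, 56% and 68.2%. Called lower in these strains were 1, 2, 1 and 0, beside 19.5%, 19.4%, 13.3% and 5.25%. In JMC151 1 of 13 tested was higher and 1 lower, beside 42.5% and 15.4% of antisense coding entries. In GR3035 3 of 15 were higher and 1 lower, beside 33.2% and 11.6%. In GR3039 and in JMC248 limma called 0 in either direction, beside 16.7% higher and 6.82% lower in GR3039 and 10.4% and 8.98% in JMC248. In the ALG-3 IPs 2 were higher and 7 lower, and in the ALG-4 IPs 1 was higher and 6 lower. The shares over all antisense coding entries were 28.9% higher and 31% lower for ALG-3, and 33.1% and 33.6% for ALG-4. In mRNA, 9 of the 15 rose at 25 C in JMC164, led by ego-1, a germline RNA-dependent RNA polymerase, at 2.40, and 13 rose in N2, led by mut-2, a nucleotidyltransferase, at 1.83. The shares of all tested genes that rose were 26.8% in JMC164 and 28.3% in N2. At 25 C rde-11, at -0.96, and rde-10, at -0.72, were lower in JMC164 than in N2, and these encode partners in exogenous RNA interference. Of all tested genes 11.2% were called lower in that comparison.

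The microRNA processing genes were taken as a list of 8. In antisense reads 4 of 7 tested were called higher in JMC151, 5 of 8 in GR3035 and 3 of 8 in GR3039, beside the backgrounds of 42.5%, 33.2% and 16.7%. In each of these strains 0 were lower, beside 15.4%, 11.6% and 6.82%. In JMC101 5 of 8 were higher, in JMC164 6, in JMC161 7, and in JMC223 5 of 6 tested, beside 54.5%, 50.7%, 56% and 68.2%. In the ALG-3 IPs 2 were higher and 2 lower, in the ALG-4 IPs 2 higher and 4 lower, and in the WAGO-10 IPs 0 in either direction. The shares over all antisense coding entries were 28.9% higher and 31% lower, 33.1% and 33.6%, and 10.4% and 8.98%. In mRNA, 2 rose and 4 fell at 25 C in JMC164, where 26.8% of all tested genes rose and 24.4% fell. In N2 3 rose and 3 fell, beside 28.3% and 30.4%. vig-1, which encodes a component of the RNA-induced silencing complex, was 1 of 3 lower in JMC164 at 25 C, at -1.03, and had an interaction of -1.72. Over all tested genes 11.2% were called lower in JMC164 at 25 C and 9.26% had a called negative interaction.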
